A study of Homo sapiens with 6 samples.

Results

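A set of 10 genes of the microRNA processing and silencing machinery was followed on arrays of mesothelioma cells whose miR-503 had been inhibited. They are DROSHA and DGCR8, XPO5, DICER1 and TARBP2, the 4 Argonaute genes AGO1, AGO2, AGO3 and AGO4, and TNRC6A. They were taken by gene symbol, by a rule that uses no measured value, although the set was chosen with earlier results of these data known. Of the 10, 9 were matched to a row of the array, out of 17687 named genes. DGCR8 was not matched to a row and is not analysed here. Each of the 9 had a single row, so no choice between rows was needed.

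The cells are MSTO-211H (MSTO), an established human mesothelioma line, and all 6 RNA samples come from this single line. The 3 anti-miR-503 cultures received a miR-503 inhibitor for 48 h, and the 3 others are controls. In the sources the controls are untreated cells, cells given 0.1% DMSO or cells given a negative control inhibitor, so their exact treatment is not settled. The 0.1% DMSO vehicle is recorded for all 6 samples, the anti-miR-503 cultures included. From each sample 100 ng of total RNA was measured on 1 Clariom S array, and the labels call the 3 arrays of a group biological replicates. The deposited values are log2 signals, in which a difference of 1 is a 2-fold change. Differences are the anti-miR-503 mean minus the control mean, with the groups as the arrays are labelled, and for most genes of the study's own gene sheet this sign is opposite to the one printed there. Which of them is turned was not settled, so every higher or lower value holds only as far as the array labels do. Fewer transcripts per cell and fewer cells that carry them cannot be told apart in RNA of whole cultures.

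MicroRNAs are cut from long primary transcripts in the nucleus by the Microprocessor, in which DROSHA is the nuclease and DGCR8 holds the RNA. Exportin-5 (XPO5) carries the hairpin precursor to the cytoplasm, where DICER1, together with its partner TARBP2, cuts it to the mature duplex. One strand is bound by an Argonaute protein and pairs through its seed with target transcripts, and TNRC6A, a GW182 protein, links Argonaute to the enzymes that remove the poly(A) tail and the cap. A microRNA inhibitor is an oligonucleotide that pairs with the mature microRNA held by Argonaute, so it acts downstream of the processing enzymes.

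The inhibited microRNA and its relatives are shown because all of them are loaded by the machinery described here, and because they differ from it in the seed only at the last position. The mature sequences are those of RefSeq on GRCh38.p14, written 5′ to 3′, with the seed (bases 2 to 8) in capitals. miR-503-5p lies at chrX:134546371-134546393 on the minus strand, and miR-424-5p close to it at chrX:134546680-134546701, also on the minus strand.
hsa-miR-503-5p: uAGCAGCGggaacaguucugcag
hsa-miR-424-5p: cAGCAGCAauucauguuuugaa
hsa-miR-16-5p: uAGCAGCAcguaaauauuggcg
hsa-miR-195-5p: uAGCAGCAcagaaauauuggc
hsa-miR-497-5p: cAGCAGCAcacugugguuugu
Of 2370 mature names in the RefSeq table, 8 others share bases 2 to 7 with miR-503-5p, and 0 others share all of bases 2 to 8. The levels of mature microRNAs were not measured on these arrays.

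Some facts of the arrays bear on the single genes. Anti-miR-503 replicate 1 correlated best with control replicate 3 (r = 0.991 across rows, which are not independent) and less with anti-miR-503 replicates 2 and 3 (r = 0.980 and 0.977). Fold changes printed for single genes are therefore also given without that array. So are the counts past the p and 2-fold thresholds over the machinery genes and over all pathway genes. Counts of groups without overlap are given over 6 arrays only. The mean log2 signal of 12 mitotic genes was lowest on control replicate 3 (8.73) and anti-miR-503 replicate 1 (9.51), and lay between 11.93 and 12.29 on the other 4. Leaving out anti-miR-503 replicate 1 keeps control replicate 3, so a low mitotic mean is then found among the controls only. The median log2 fold change of the 12 mitotic genes was 0.27 over 6 arrays and 1.28 without anti-miR-503 replicate 1. Values without that array carry this difference between the groups as well, and its part in them was not tested. Of 9 mesothelial markers, 5 lay above the array background on all 6 arrays, among them MSLN and CALB2, whereas WT1, PDPN and KRT19 did so on no array. None of 5 leukocyte and 4 endothelial markers lay above background on any array. Background means the level that 95% of the negative controls on an array did not exceed, a log2 signal of 7.44 to 8.09. The mean log2 signal of the mesothelial list was 9.76 to 10.33 and that of the leukocyte list 4.32 to 4.60 over the arrays.

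None of the 9 machinery genes passed any of the thresholds used. At an adjusted p under 0.05 (limma, Benjamini-Hochberg over all rows) 0 of 9 were called, and 0% of the 21448 rows tested were. By the looser 2-fold threshold (a 2-fold difference together with an unadjusted p of at most 0.05 from limma), 0 of 9 were higher, where 0.872% of all rows were, and 0 of 9 were lower, where 0.914% were. By the unadjusted p alone, called the unadjusted threshold hereafter, 0 of 9 passed, against 3.28% of all rows higher and 3.14% lower. The 2 groups of arrays overlapped for every one of the 9 genes, whereas 5.92% of all rows were higher and 4.6% lower without overlap. With shares this low over all rows, a count of 0 among 9 genes is close to what the background gives and does not set these genes apart. TARBP2 was not above background on any array. Over the other 8 genes the median log2 fold change was -0.015, beside -0.036 over the 8815 named genes above background on at least 1 array. Without anti-miR-503 replicate 1 these medians were -0.12 and -0.046, so their order depended on that array. For each of the 8 the difference between the groups was smaller than the larger of the 2 group SDs. The 95% intervals of 5 of the 8 lay within a 2-fold change in both directions, and those of DICER1, AGO2 and AGO3 reached slightly beyond it on one side. The 5 include AGO4, which lay above background on 2 arrays, and over the 7 genes above background on all 6 arrays the median was -0.021, with 4 intervals within 2-fold.

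**Figure D1:**
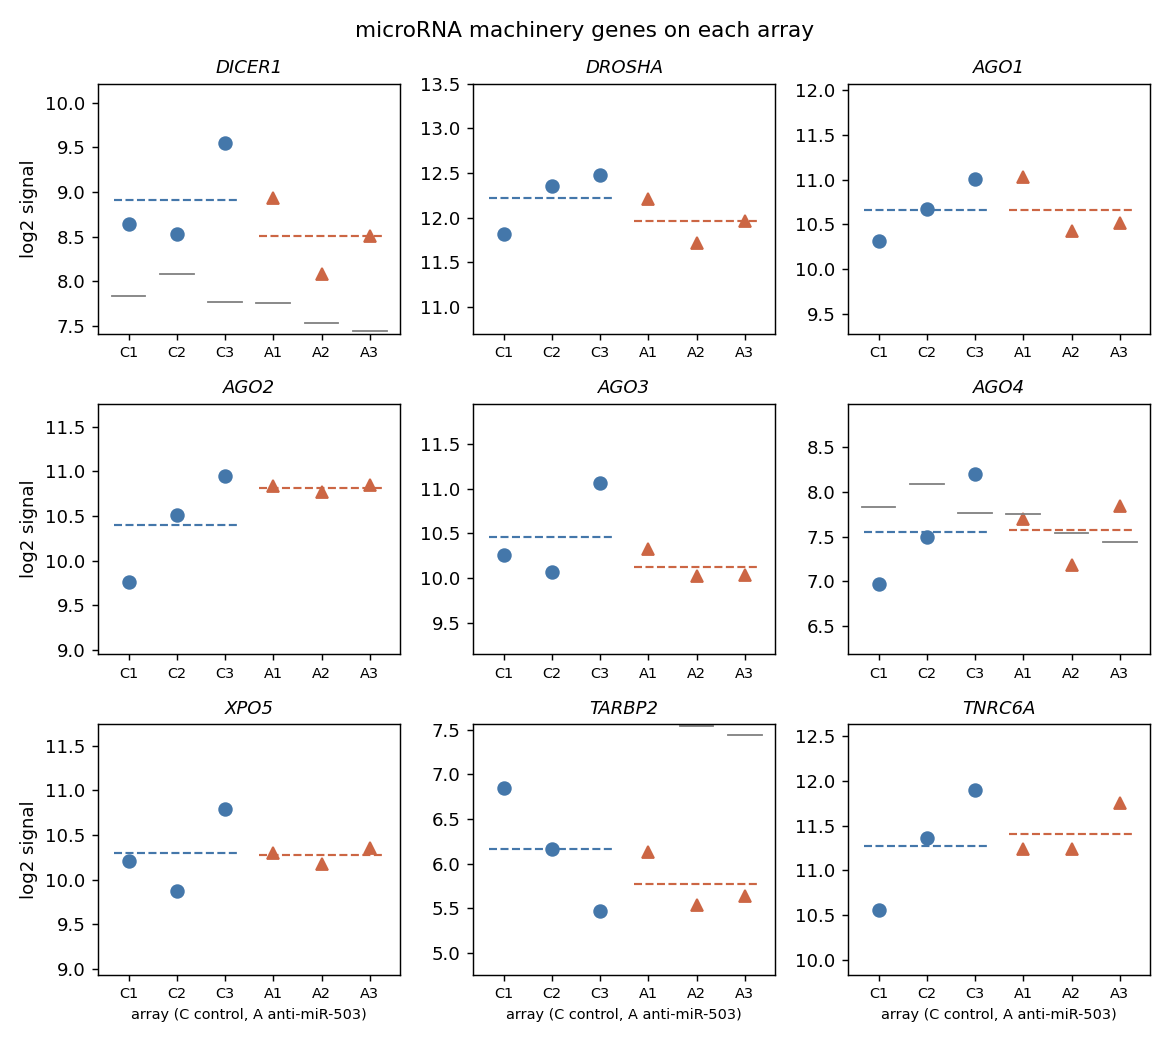
Log2 signal (vertical axis) of the 9 matched machinery genes on each array (horizontal axis), with blue circles for control replicates C1 to C3 and red triangles for anti-miR-503 replicates A1 to A3. Dashed lines are group means, grey ticks are the background of each array where it falls in the panel, each panel spans the same number of log2 units, and in every panel the 2 groups overlap.

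In the nuclear step, DROSHA, the nuclease that releases the precursor hairpin, was measured at 11.82, 12.36 and 12.48 (log2 signal) in controls 1, 2 and 3 and at 12.21, 11.72 and 11.96 in anti-miR-503 cultures 1, 2 and 3, the order used throughout. All 3 anti-miR-503 values lay below the upper 2 controls, and control replicate 1 lay among them. For DROSHA this gave a log2 fold change of -0.25 (SE, the standard error, 0.26, 95% interval -0.85 to 0.34, adjusted p = 0.854), and it was -0.38 without anti-miR-503 replicate 1. It lay at -0.45 without control replicate 1, at -0.12 without control replicate 3 and at -0.13 without anti-miR-503 replicate 2. For XPO5, the carrier of precursors through the nuclear pore, the log2 signal was 10.21, 9.88 and 10.80 without inhibitor and 10.30, 10.17 and 10.35 with it. The 3 anti-miR-503 arrays fell inside the range of the controls and were close together, with an SD of 0.093 against 0.46. Its log2 fold change was -0.021 (SE 0.27, 95% interval -0.64 to 0.60, adjusted p = 0.990), and -0.034 without anti-miR-503 replicate 1. The sign of this small value turned under both other scalings of the arrays, so no direction is given for XPO5.

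In the cytoplasmic step, DICER1, the nuclease that cuts the precursor to its mature length, had log2 signals of 8.64, 8.53 and 9.55 in controls and 8.94, 8.08 and 8.51 with anti-miR-503. Control replicate 3 was the highest and anti-miR-503 replicate 2 the lowest of the 6, and the other 4 arrays were mixed. A log2 fold change of -0.40 (SE 0.34, 95% interval -1.17 to 0.38, adjusted p = 0.821) was the most negative among the 8 genes above background. It was -0.61 (adjusted p = 0.496) without anti-miR-503 replicate 1 but -0.076 without control replicate 3, so its size rested largely on that 1 array. TARBP2, the double-stranded RNA binding partner of DICER1, read 6.84, 6.17 and 5.47 in controls and 6.13, 5.53 and 5.63 with anti-miR-503. All 6 values lay below the background of their own array, and no fold change is therefore given.

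The Argonaute genes encode the proteins that hold the mature microRNA. AGO2, which in mammals cuts fully paired targets, had log2 signals of 9.76, 10.51 and 10.95 in controls and 10.84, 10.77 and 10.85 with the inhibitor. The 3 anti-miR-503 arrays were nearly equal (SD 0.040), below the highest control and above the other 2, while the controls were spread widely (SD 0.60). The log2 fold change of 0.41 (SE 0.31, 95% interval -0.29 to 1.12, adjusted p = 0.806) was the most positive of the 8 genes. Without anti-miR-503 replicate 1 it was 0.40, but it was 0.089 without control replicate 1 and 0.68 (adjusted p = 0.600, limma) without control replicate 3. The last of these passed the unadjusted threshold.

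AGO4, AGO1 and AGO3 are neighbours in this order on chromosome 1, and AGO2 lies on another chromosome. AGO1 read 10.32, 10.67 and 11.00 in controls and 11.03, 10.42 and 10.52 with anti-miR-503, with the highest value in anti-miR-503 replicate 1 and the lowest in control replicate 1. Its log2 fold change was -0.0086 (SE 0.27, 95% interval -0.63 to 0.61, adjusted p = 0.995), and its sign turned under other scalings. AGO3 read 10.26, 10.06 and 11.07 in controls and 10.32, 10.02 and 10.03 with anti-miR-503. A single array, control replicate 3, stood above the rest for AGO3, and the other 5 lay between 10.02 and 10.32. Its log2 fold change was -0.34 (SE 0.30, 95% interval -1.01 to 0.34, adjusted p = 0.826), and without control replicate 3 it was -0.035. AGO4 lay above background only on control replicate 3 and anti-miR-503 replicate 3. It read 6.97, 7.50 and 8.20 in controls and 7.70, 7.19 and 7.85 with anti-miR-503, and the latter 3 lay inside the range of the former. For AGO4 this gave a log2 fold change of 0.022 (SE 0.34, 95% interval -0.76 to 0.80, adjusted p = 0.992), measured close to background. AGO1 and AGO4 had log2 fold changes of -0.20 and -0.040, and AGO3 of -0.44, without anti-miR-503 replicate 1.

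TNRC6A, the scaffold that joins Argonaute to the deadenylases, had log2 signals of 10.56, 11.36 and 11.91 in controls and 11.24, 11.24 and 11.76 with anti-miR-503. The controls alone spanned both the lowest and the highest value of the 6 arrays. Its log2 fold change was 0.14 (SE 0.35, 95% interval -0.67 to 0.94, adjusted p = 0.954), 0.22 without anti-miR-503 replicate 1 and -0.22 without control replicate 1. Without anti-miR-503 replicate 1, where 0.718% of all rows passed an adjusted p under 0.05, 0 of the 9 genes did. Over the same 5 arrays 2.42% of all rows passed the 2-fold threshold as higher and 3.81% as lower, and 0 of the 9 genes did. The unadjusted threshold was also passed by 0 of the 9 there, beside 6.39% of all rows higher and 8.12% lower.

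**Figure D2:**
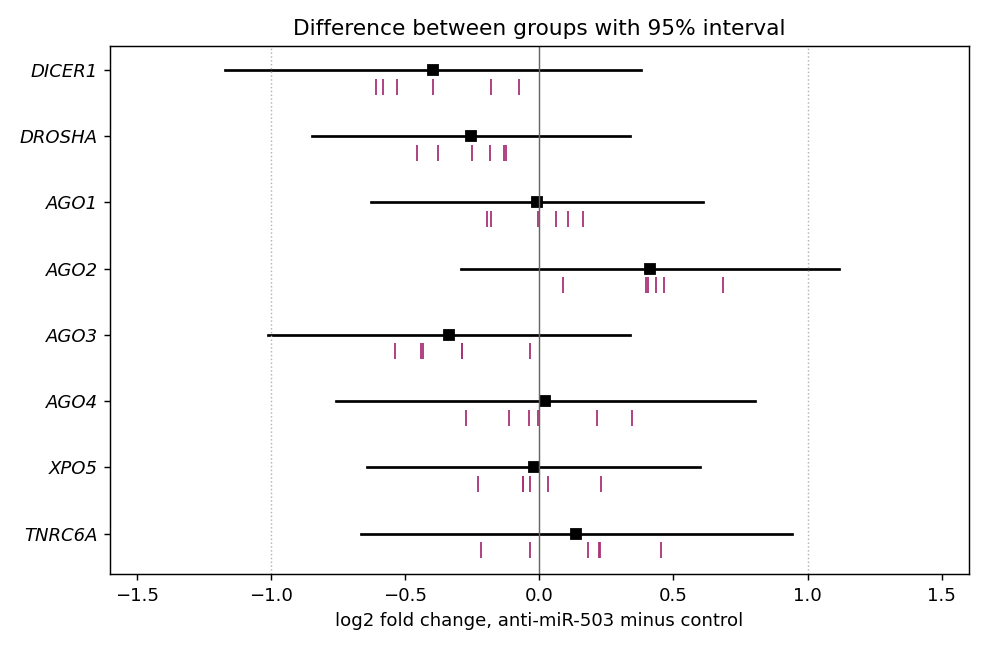
Log2 fold change of anti-miR-503 minus control (horizontal axis) for the 8 machinery genes above background on at least 1 array (vertical axis). Squares are the estimates over 6 arrays, bars the 95% intervals from limma, purple ticks the estimates when each array is left out in turn, and dotted lines a 2-fold change. All 8 intervals hold 0, from DICER1 at -0.40 to AGO2 at 0.41.

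The larger differences among these genes were between arrays of the same group. The SD over the 3 controls was larger than that over the 3 anti-miR-503 arrays for 9 of the 9 genes, with a median of 0.56 against 0.30, whereas this held for 48.4% of all named genes, whose medians were 0.29 and 0.30. Among the 8124 named genes above background on 3 or more arrays it held for 51.6%, with medians of 0.325 and 0.319. The 9 include TARBP2, below background on every array, and AGO4, above it on 2. Control replicate 3 was the highest control for 8 of the 9 genes, against 36.9% of named genes and 36.5% of those 8124. It was the highest of all 6 arrays for 7 of the 9, against 17.2% of named genes. The exceptions to the latter were AGO1, highest in anti-miR-503 replicate 1, and TARBP2, highest in control replicate 1 but below background. Control replicate 1 was the lowest of the 6 arrays for AGO1, AGO2, AGO4 and TNRC6A, against 19.8% of named genes. Anti-miR-503 replicate 2 was the lowest for DICER1, DROSHA and AGO3, against 15.3% of named genes. These counts describe 9 genes on the same 6 arrays, and genes are not independent replicates.

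Averaged over the 9 genes, the log2 signal was 9.49, 9.67 and 10.16 in controls and 9.86, 9.46 and 9.72 with anti-miR-503. Its upper 2 values were those of control replicate 3 and anti-miR-503 replicate 1, the arrays with the lowest mean of the 12 mitotic genes. On these 2 arrays PLK1, a mitotic kinase, was at 9.73 and 11.43, against 13.43 to 14.37 on the other 4. Single genes did not all follow the order of the averages. Anti-miR-503 replicate 3, with a mitotic mean of 12.14, lay above anti-miR-503 replicate 1 for AGO2, AGO4, XPO5 and TNRC6A. It lay below that array for DICER1, DROSHA, AGO1, AGO3 and TARBP2, the last below background. The part of the growth state of the cultures in the levels of the machinery genes was not tested. Each group holds 1 of the 2 arrays with a low mitotic mean.

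**Figure D3:**
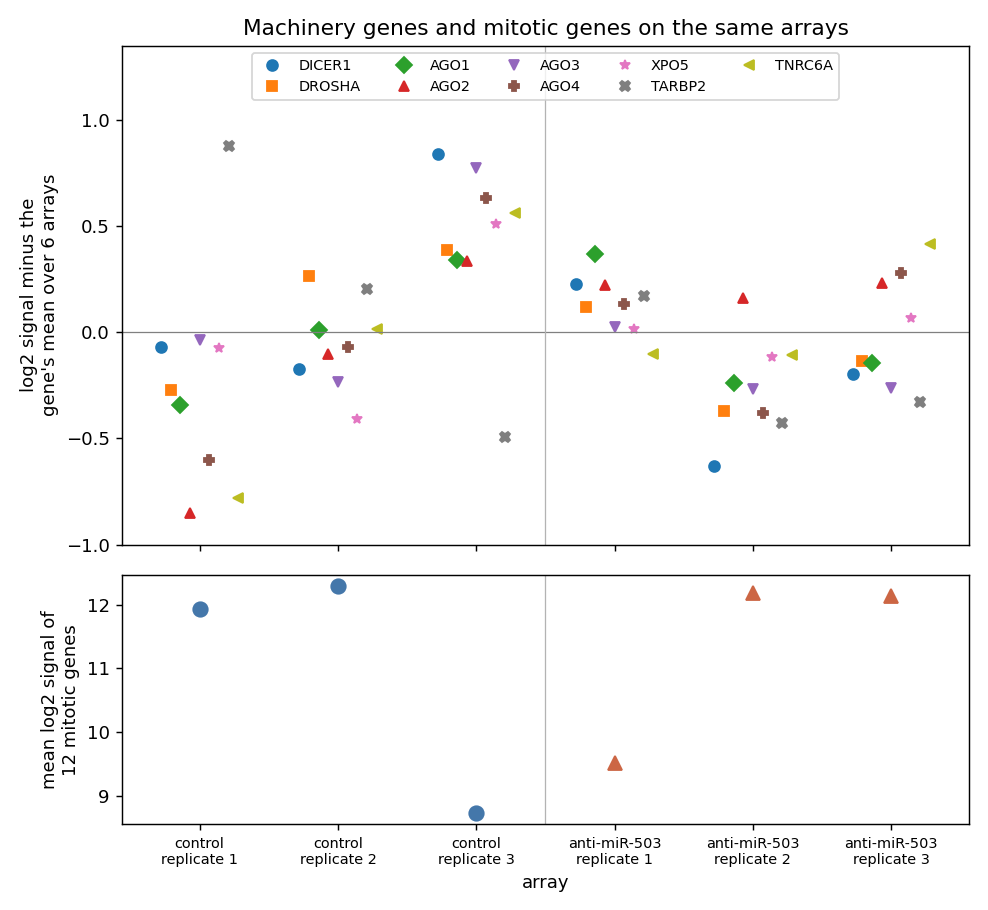
Upper panel, log2 signal of each machinery gene minus its mean over the 6 arrays (vertical axis), by array (horizontal axis). Lower panel, mean log2 signal of 12 mitotic genes on the same arrays, blue circles for control and red triangles for anti-miR-503. In control replicate 3, where the mitotic mean was 8.73, 8 of the 9 machinery genes lay above their own mean.

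The wider pathway was described by 5 lists with 64 genes, of which 56 were matched to a row and 51 lay above background on at least 1 array. The adjusted threshold was passed by 0 of the 56, and past the unadjusted one 2 were higher and 3 lower, beside the 3.28% and 3.14% of all rows given above. Without anti-miR-503 replicate 1 the unadjusted threshold was passed by 3 higher and 8 lower genes of the 56, beside the 6.39% and 8.12% of all rows given above. The 2-fold threshold was passed by 1 of the 56, DHX9, which was lower, where 0.914% of all rows were. Of the 51 genes above background, 34 had a lower and 17 a higher mean in the anti-miR-503 arrays, with a median log2 fold change of -0.13 (-0.17 without anti-miR-503 replicate 1), beside 53.9% lower and -0.036 over all named genes above background. Groups without overlap were found for 4 of the 56 higher (NCBP2, RAN, TOB1 and XRN1) and 5 lower (DHX9, AJUBA, SMAD1, NCBP1 and CNOT4), where 5.92% and 4.6% of all rows did so. Of these 9, NCBP2, DHX9 and AJUBA are named by rule and the other 6 after their values were seen.

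DHX9, an RNA helicase that has been linked to the loading of small RNAs onto Argonaute, had log2 signals of 10.99, 11.52 and 11.57 in controls and 10.50, 9.42 and 10.60 with anti-miR-503. All 3 anti-miR-503 arrays lay below all 3 controls, with replicate 2 the lowest. A log2 fold change of -1.19 (SE 0.35, adjusted p = 0.756) resulted, which was -1.35 without anti-miR-503 replicate 1 and -0.81, under 2-fold, without anti-miR-503 replicate 2. DHX9 was the 1 gene of 11 measured on the list of export, binding and editing of precursors past the unadjusted threshold. Over all rows 3.14% were lower past it. Outside the rule for named genes and for their roles, RAN, the GTPase that drives XPO5, had a log2 fold change of 0.12 (SE 0.20), and 0.17 without anti-miR-503 replicate 1. PRKRA, the other double-stranded RNA binding partner of DICER1, had 0.38 (SE 0.25), and 0.47 without that array. LIN28A, LIN28B and TUT4, which have been linked to let-7 precursors, were not above background on any array. TUT7, of the same list and also outside that rule, lay above background on all 6 arrays. Its log2 fold change was 0.56 (SE 0.32), and 0.62 without anti-miR-503 replicate 1.

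Among 7 measured partners of the Microprocessor, 1 was higher and 1 lower past the unadjusted threshold, beside 3.28% and 3.14% of all rows. Their median log2 fold change was -0.46, beside -0.036 over all named genes above background. Without anti-miR-503 replicate 1 these medians were -0.60 and -0.046. Without that array 1 gene, NCBP2, was higher and 4 were lower past that threshold, beside 6.39% and 8.12% of all rows. The 4 were SRRT, NCBP1, SMAD1 and DDX17, the last named after its value was seen. SRRT, also known as ARS2, joins the cap-binding complex to primary microRNA processing. Its log2 signals were 11.76, 11.26 and 10.93 in controls and 10.93, 10.15 and 9.93 with anti-miR-503. Control replicate 3 and anti-miR-503 replicate 1 were at the same level, and the other arrays lay apart by group. SRRT had a log2 fold change of -0.98 (SE 0.33, adjusted p = 0.756), from -1.28 without anti-miR-503 replicate 1 to -0.76 without control replicate 1. NCBP2, the subunit of the nuclear cap-binding complex that contacts the cap, read 12.29, 12.76 and 12.58 in controls and 12.93, 13.23 and 13.06 with anti-miR-503. The groups did not overlap, and the log2 fold change was 0.53 (SE 0.23, adjusted p = 0.756), or 0.60 without anti-miR-503 replicate 1. NCBP1, the larger subunit of the same complex, had -0.70 (SE 0.34, adjusted p = 0.756), or -0.93 without that array.

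Of 12 measured partners of Argonaute, 1 passed the unadjusted threshold as lower, where 3.14% of all rows did. It was AJUBA, a LIM domain scaffold found in cytoplasmic processing bodies. Without anti-miR-503 replicate 1, 3 passed it as lower, where 8.12% of all rows did. These were AJUBA with GEMIN4 at -1.22 and FMR1 at -0.65, the latter pair named after their values were seen. AJUBA read 13.36, 13.23 and 13.21 in controls and 12.71, 12.06 and 12.45 with anti-miR-503. All 3 anti-miR-503 arrays were lower than the tightly grouped controls, and the log2 fold change was -0.86 (SE 0.24, adjusted p = 0.756), or -1.01 without anti-miR-503 replicate 1. Of the paralogs of TNRC6A, TNRC6B had a log2 fold change of -0.28 (SE 0.33), which was -0.62 without anti-miR-503 replicate 1, and TNRC6C was not above background on any array.

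Among the enzymes that act on the bound target, 0 of 13 measured deadenylation genes passed the unadjusted threshold, beside the 3.28% and 3.14% of all rows given above. Those with the smallest p were CNOT6L, a catalytic subunit of the CCR4-NOT complex, with a log2 fold change of 0.56 (SE 0.31), and CNOT10, a subunit without catalytic activity, with -0.44 (SE 0.24). CNOT6L ranged from 0.33 without anti-miR-503 replicate 3 to 0.78 without anti-miR-503 replicate 1, where it passed the unadjusted threshold (adjusted p = 0.299), as it also did with array weights and with the replicate number as a block. CNOT10 was at -0.52 without anti-miR-503 replicate 1 and at -0.28 without control replicate 3. Of 13 genes of decapping, decay and translational repression, 1 passed as higher, where 3.28% of all rows did. It was the decapping enzyme DCP2. Its log2 signals were 9.09, 10.18 and 10.06 in controls and 10.02, 11.03 and 11.13 with anti-miR-503. Anti-miR-503 replicate 1 lay within the controls and the other 2 above them, and the log2 fold change was 0.95 (SE 0.39, adjusted p = 0.756), from 0.61 without control replicate 1 to 1.30 without anti-miR-503 replicate 1. Over the 5 arrays without anti-miR-503 replicate 1, DCP2 passed the 2-fold threshold as higher and DHX9, SRRT, AJUBA and GEMIN4 as lower, and 0 of the 56 passed the adjusted one. These 1 and 4 genes of 56 stand beside the 2.42% and 3.81% of all rows given above.

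**Figure D4:**
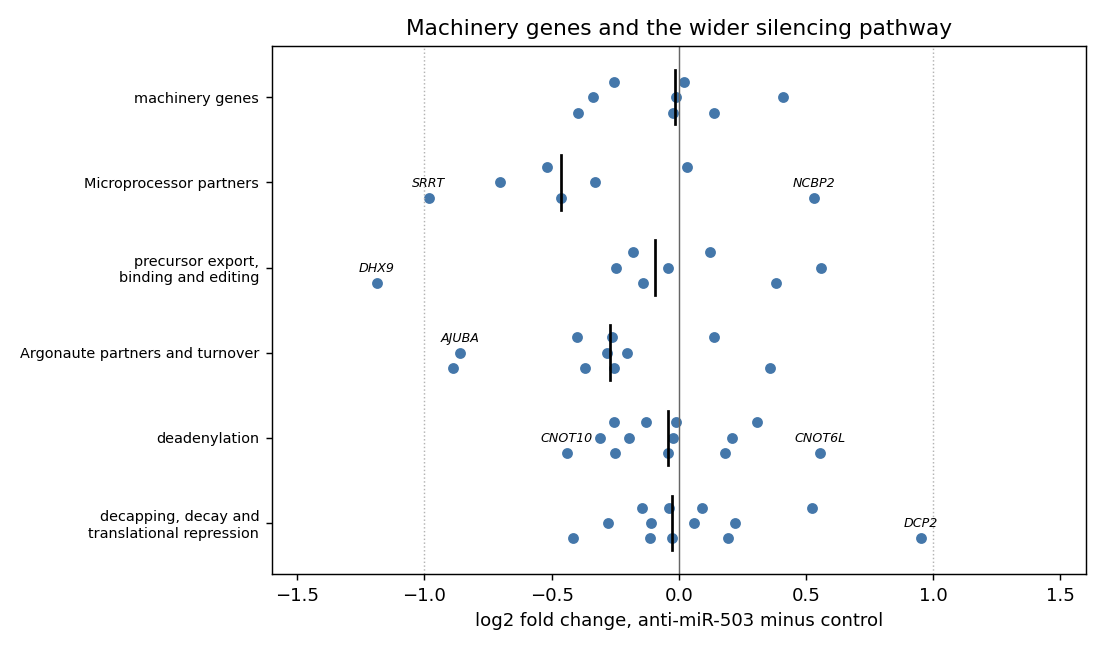
Log2 fold change of anti-miR-503 minus control (horizontal axis) for the 8 machinery genes and the 51 genes of 5 pathway lists that lay above background on at least 1 array (vertical axis, 1 point per gene, offset vertically for legibility). Black bars are list medians, dotted lines a 2-fold change, and of all these genes DHX9 at -1.19 alone lay beyond it.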

How the data were processed

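The deposited values are 1 log2 signal per transcript cluster of each Clariom S array, which the authors made in the Transcriptome Analysis Console by RMA. RMA corrects background, summarizes probes and equalizes the distributions of the arrays, so that a shift shared by all genes cannot be seen. The annotation build of the array was not stated. No normalization was added. After 2903 control rows were removed from 24351, the tested rows numbered 21448, and 17709 of them carried 1 gene symbol in the platform annotation. The number of arrays limits the precision.

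A linear model (limma 3.58.1, R 4.3.3) compared the groups over 6 arrays, with eBayes moderation and Benjamini-Hochberg adjusted p-values. It was checked on simulated data with independent noise for each row and array, which lack the likeness between arrays described above. That check covers only the recovery of added differences and their signs. The p-values measure the spread between cultures of 1 cell line. The genes and lists were chosen with earlier results of these data known. Named are all matched machinery genes and, of each pathway list, up to 6 genes with an unadjusted p of at most 0.05, or else the 2 with the smallest p. For the 3 machinery genes with the largest SD, the 3 most similar genes are also named. Of the pathway genes listed, 8 were not matched to a row and are not analysed here. Other settings tried were a robust fit with a variance trend, the methods' t-test, omission of dim rows, a single row for each named gene, repeated quantile normalization, median centring, weights for the arrays, a replicate block and omission of each array. A mean over several rows of a symbol was planned but each gene had 1 row.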

Additional observations from a re-analysis of the deposited data

How the results depend on the processing

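Under all 14 alternatives, 0 of the 9 machinery genes (8 where TARBP2 fell below the median level) passed either the adjusted or the 2-fold threshold. Without control replicate 3, 2 had an unadjusted p of 0.05 or less, AGO2 and TARBP2, the latter below background. Values near 0 turned sign. AGO1 had a log2 fold change of 0.056 and XPO5 of 0.031 after a second quantile normalization, 0.025 and 0.012 after centring on the array median, and XPO5 had 0.072 with array weights. When each array was left out in turn, AGO1 ranged from -0.20 to 0.16, AGO4 from -0.27 to 0.34, XPO5 from -0.23 to 0.23 and TNRC6A from -0.22 to 0.45. The median over the 9 matched genes, TARBP2 included, was -0.021 and ranged from -0.22 to 0.16, the latter without control replicate 3. Of the pathway genes, 1 was 2-fold higher after a second quantile normalization, 1 higher and 2 lower with array weights, and 0 to 1 higher and 0 to 4 lower when an array was left out. Over all rows the 2-fold counts, higher and lower, were 38 and 55 by the methods' t-test, 118 and 123 over the rows at or above the median level, where fewer rows were tested, and 342 and 411 with array weights. Leaving out an array gave 81 to 519 higher and 82 to 818 lower, and 0 to 154 rows at an adjusted p under 0.05. The causes were not tested. CNOT6L, at an unadjusted p over 0.05 on 6 arrays, was under it without anti-miR-503 replicate 1, with array weights and with the replicate block. DCP2, SRRT and NCBP2, which passed the unadjusted threshold on 6 arrays, each lost it when control replicate 1, anti-miR-503 replicate 2 or anti-miR-503 replicate 3 was left out. DCP2 and SRRT also lost it by the methods' t-test. NCBP2 also lost it without control replicate 3 and over the rows at or above the median level. DHX9 and AJUBA passed it under all 14 alternatives. The deviations of same-numbered arrays from their group means correlated at -0.10, 0.21 and 0 across rows. Such deviations sum to 0 within each group of 3 arrays, so they cannot decide whether the replicate numbers pair the arrays. With the replicate block the counts were 197 higher and 228 lower over all rows, 0 of the 9 machinery genes and 1 pathway gene.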

Other observations

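Among the 8124 named genes above background on at least 3 arrays, those whose levels followed a machinery gene most closely were found by the root mean square difference of log2 signals, each gene centred on its mean over the 6 arrays. For DICER1, with an SD of 0.50 over the 6 arrays, these were RNPC3 (0.064), TBC1D9B (0.075) and CEP95 (0.094). RNPC3, a protein of the minor spliceosome, was at 10.26 in control replicate 3 and at 8.78 in anti-miR-503 replicate 2, the arrays at which DICER1 was also highest and lowest. For TNRC6A, with an SD of 0.47, they were SRGAP2B (0.10), ARFGEF1 (0.10) and NDRG3 (0.10). For TARBP2, with an SD of 0.53 and below background on every array, they were PDLIM1 (0.080), MRPS17 (0.13) and TCTN2 (0.13), all highest in control replicate 1. With 6 arrays and this many candidates, close matches arise without any relation between the genes.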
